A study of Arabidopsis thaliana with 24 samples.

Results

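Plastid genomes of land plants carry ndh genes, which encode subunits of the chloroplast NADH dehydrogenase-like (NDH) complex. This thylakoid complex is related to respiratory complex I. It takes electrons from reduced ferredoxin to plastoquinone, and is known for cyclic electron flow around photosystem I and for chlororespiration. Other NDH subunits, and the factors that process, edit and assemble its plastid-encoded parts, are encoded in the nucleus. Described here are the 10 probe sets that the array's annotation gives to one single-copy plastid ndh gene each (ndhA, ndhC, ndhD, ndhE, ndhF, ndhG, ndhH, ndhI, ndhJ and ndhK), out of 22810 probe sets on the array and 69 with a single plastid-encoded gene. They were chosen by gene name, without a signal cutoff, but with earlier results of these data known. The ndhB gene was left out because its probe set matches both of its copies in the inverted repeat.

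In the RefSeq gene order of the TAIR10.1 assembly, which was used here for names and neighbours only, 6 of the 10 genes lie in one stretch. That stretch runs ndhD, psaC, ndhE, ndhG, ndhI, ndhA and ndhH, with psaC, a gene for an iron-sulfur subunit of photosystem I, as the one gene of another complex in it, and carries the locus tags ArthCp074 (ndhD) to ArthCp080 (ndhH). A separate stretch holds ndhJ, ndhK and ndhC side by side (ArthCp025 to ArthCp027), and ndhF (ArthCp071) stands apart between ycf1 and rpl32. By function, ndhA, ndhC, ndhD, ndhE, ndhF and ndhG encode membrane-arm subunits, and ndhH, ndhI, ndhJ and ndhK encode subunits of the stromal arm.

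The 24 Affymetrix arrays measured total RNA of whole Arabidopsis thaliana seedlings of ecotype Columbia, all 10 days old and grown on MS plates at 22 °C. Seedlings were wild type (WT), atmyc2, cop1-6 or the atmyc2 cop1-6 double mutant. AtMYC2 is a bHLH regulator that acts in jasmonate, abscisic acid (ABA) and light signalling, and COP1 is a ubiquitin ligase subunit that represses light development in darkness. Each genotype was grown in constant darkness, in constant blue light at 35 µmol per s per m2, or in the same blue light on plates with ABA at 0.5, in a unit the labels write as µm. Every one of the 12 groups had 2 arrays, labelled as biological replicates. Nothing given says that these came from separate cultures, so p-values measure only the spread between these arrays. The mutant alleles could not be checked on the arrays, since the annotation used here lists no probe set for AtMYC2 or COP1.

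Signals below are the deposited array intensities, in arbitrary units, given as replicate 1 and replicate 2, and they are comparable only within a probe set. Fold changes are log2 differences of signal + 1 with the standard error (SE) of the limma fit over all 24 arrays, and a gene was called at a Benjamini-Hochberg adjusted p under 0.05 over 16196 probe sets. Probe sets whose highest group mean stayed under a signal of 19.1, the 40th percentile of all signals, were not tested. Of the 10 ndh probe sets 9 were tested. For ndhF all 24 signals lay between 0.3 and 14.5, under that dim level.

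Replicate arrays correlated at r = 0.914, in cop1-6 with ABA, to 0.986 over log2 signals. The trimmed mean signal of the arrays lay between 98.5 and 99.9. Control probe sets separated the arrays by condition. The mean of 12 poly-A spike-in control probe sets lay between 923 and 1023 in dark WT and atmyc2, between 223 and 368 in dark cop1-6 and the double mutant, between 4.47 and 13.3 in blue light, and between 85.3 and 137 with ABA. The 25S rRNA control lay between 4.6 and 11.7, 4.6 and 189.9, 28.5 and 96.3, and 769.5 and 2762 in the same order, and the log2 ratio of 3′ to 5′ GAPDH signal between 0.84 and 1.26, 0.51 and 0.85, 0.39 and 0.74, and 0.25 and 0.74. A second GAPDH pair lay between -0.33 and 0.08 over all arrays. It was lowest in dark WT, at -0.32 and -0.33, against -0.0009 and 0.005 in dark atmyc2. In dark cop1-6 and the double mutant it lay between -0.10 and 0.01. With ABA the 25S rRNA control was 2636.8 and 2762.5 in WT and 1970.1 and 2561.0 in atmyc2. It was 769.5 and 1668.8 in cop1-6 and 1600.8 and 1433.8 in the double mutant. Array preparation and condition cannot be told apart in the comparisons below, nor can preparation and genotype in darkness and with ABA. The part of these controls in those comparisons was not tested.

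**Figure D1:**
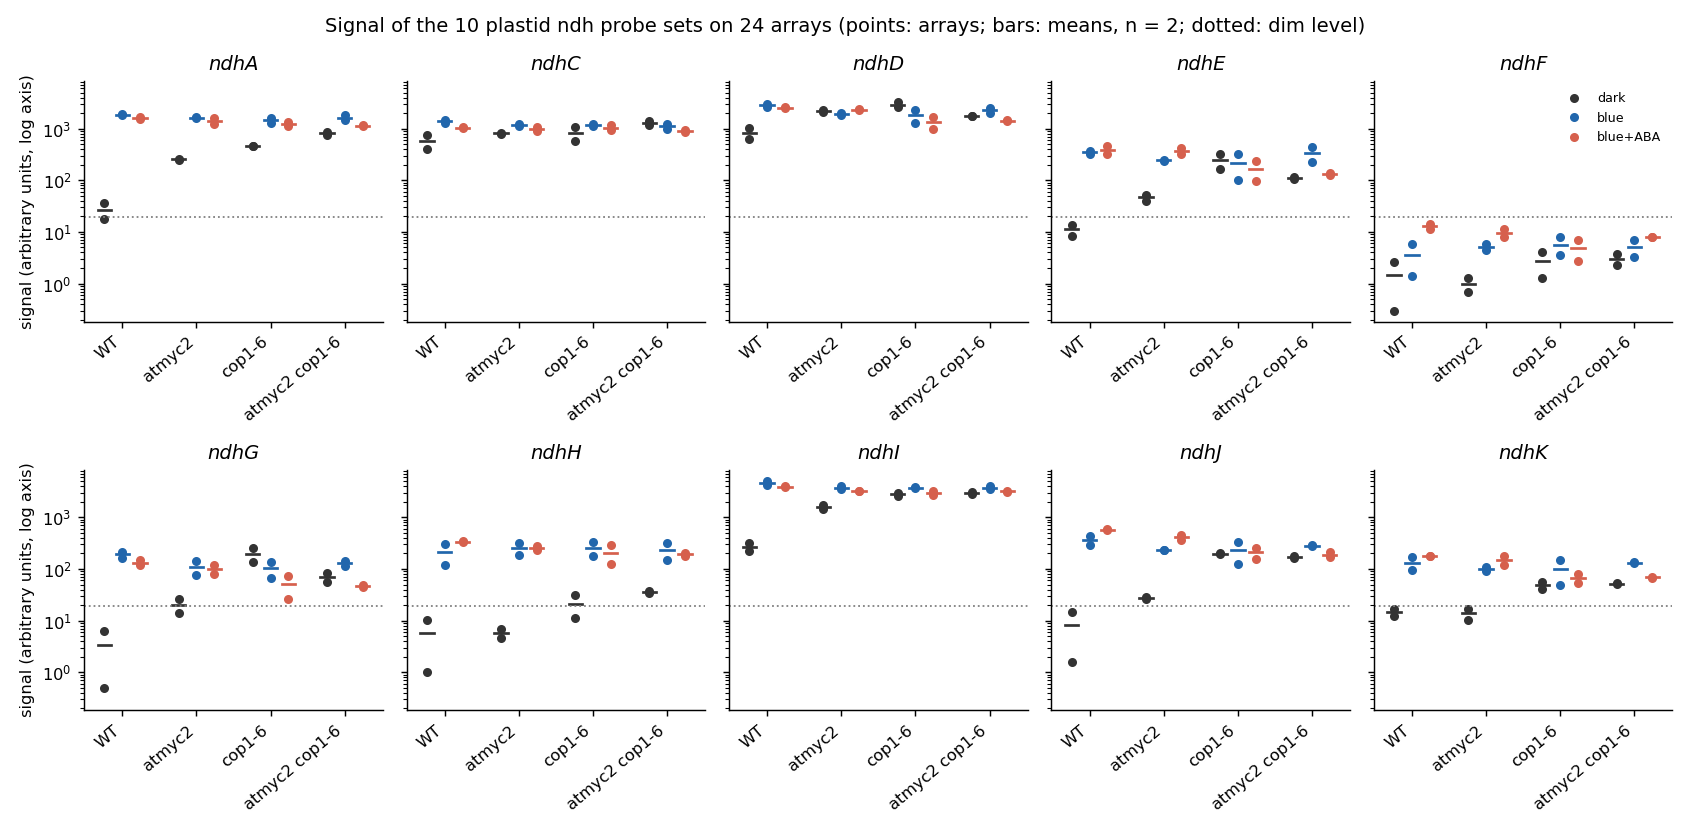
Signal of the 10 plastid ndh probe sets (log axis, arbitrary units) on each of the 24 arrays, grouped by genotype and condition; every point is 1 array. The dark WT arrays are the lowest group for most genes, and ndhF stays under the dim level of 19.1 on every array.

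All 9 tested ndh genes were higher in blue light than in darkness in WT, with log2 differences from 1.33 for ndhC to 6.16 for ndhA. Of all probe sets tested, 23.7% were called higher in this comparison. The median of the 9 was 4.88, against 3.89 over 58 other plastid-encoded probe sets, of which 55 were called higher, and -0.02 over all probe sets tested. Less RNA per plastid and fewer plastids or green cells in the seedling cannot be told apart in such bulk samples. The green tissue markers moved the same way: PSAN, a photosystem I subunit, SBPASE and PRK, both Calvin cycle enzymes, were higher in light on the log2 scale by 5.88, 5.20 and 4.01, and their part in the ndh differences was not tested.

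Among membrane-arm genes, ndhA, a quinone-side subunit, had signals of 17.7 and 35.6 in dark WT and 1848.3 and 1880.2 in blue light. Darkness thus left 1.43% of the lit mean, a log2 difference of 6.16 ± 0.23 (adjusted p = 1.99e-13). For ndhG the dark signals were 6.2 and 0.5 and the lit ones 216.8 and 166.3, a difference of 5.86 ± 0.62 (adjusted p = 1.12e-06). The lit arrays stood far above the dark ones for both genes, without overlap. For ndhE the values were 8.5 and 13.8 in darkness and 327.1 and 370.5 in light (4.88 ± 0.48, adjusted p = 4.88e-07). The remaining membrane-arm genes kept much more signal in darkness. For ndhD, one of the proton-pumping antiporter-like subunits, the signals were 616.3 and 1025.3 in darkness and 3001.4 and 2612.4 in light, so that 29.2% of the lit mean remained (1.82 ± 0.26, adjusted p = 1.51e-05). For ndhC they were 400.8 and 752.9 against 1478.7 and 1301.4, and 41.5% remained (1.33 ± 0.26, adjusted p = 3.50e-04).

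In the stromal arm, ndhI, which encodes a subunit with iron-sulfur clusters, rose from 220.4 and 320.4 to 5124.0 and 4136.0, a difference of 4.11 ± 0.16 (adjusted p = 4.10e-13). For ndhJ the signals were 1.6 and 15.0 in darkness and 292.7 and 439.6 in light (5.80 ± 0.58, adjusted p = 6.48e-07). For ndhH they were 1.0 and 10.5 against 119.2 and 301.4 (5.31 ± 0.70, adjusted p = 1.53e-05). Both genes were near the bottom of the scale in darkness and differed widely between the 2 dark arrays. For ndhK, another iron-sulfur subunit, the signals were 16.6 and 12.2 against 94.4 and 170.9 (3.07 ± 0.39, adjusted p = 5.01e-06). Dark WT signals of ndhE, ndhG, ndhH, ndhJ and ndhK all lay under the dim level, where a log2 difference depends on the constant added to the signal. With 19.1 added in place of 1, the differences were 3.61, 3.23, 3.11, 3.83 and 2.14 in that order, and all 9 genes were still called.

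**Figure D2:**
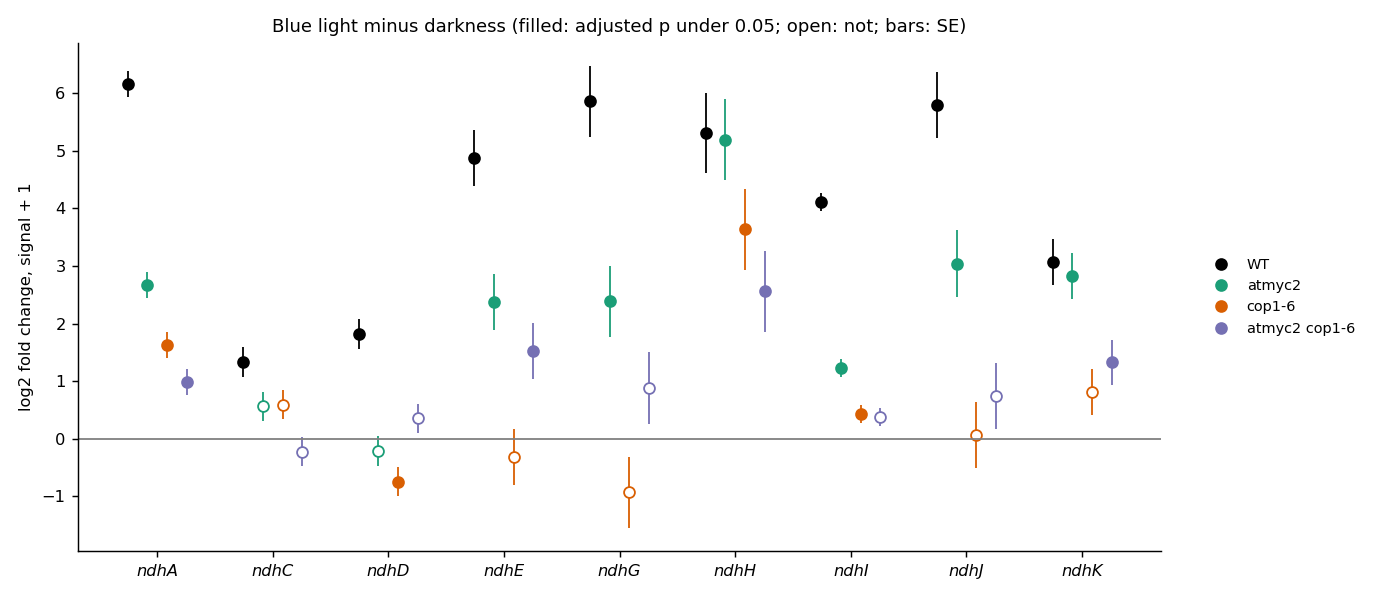
Log2 fold change from darkness to blue light (signal + 1) of the 9 tested ndh genes in the 4 genotypes; points are fitted values, filled where the adjusted p was under 0.05, and bars are the SE. WT points lie between 1.33 and 6.16, and those of the mutants are lower for most genes.

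In darkness the atmyc2 mutant had higher signals than WT for 6 of the 9 genes, ndhA, ndhD, ndhE, ndhG, ndhI and ndhJ, while 4.54% of all probe sets tested were called higher. For ndhA the dark signals were 251.1 and 261.2 in atmyc2 against 17.7 and 35.6 in WT, a 9.61-fold ratio of means and a log2 difference of 3.30 ± 0.23 (adjusted p = 1.24e-07). For ndhI they were 1467.1 and 1697.8 against 220.4 and 320.4 (2.57 ± 0.16, adjusted p = 4.68e-08), and for ndhD 2304.6 and 2115.8 against 616.3 and 1025.3 (1.47 ± 0.26, adjusted p = 0.0016). In these 3 genes both atmyc2 arrays lay above both WT arrays by more than the replicates differed. For the other 3 called genes dark WT signals were under the dim level. Dark atmyc2 signals were 52.5 and 40.3 for ndhE, 14.1 and 26.2 for ndhG and 29.1 and 26.6 for ndhJ, with log2 differences of 1.99, 2.62 and 2.16 (adjusted p = 0.0153, 0.0132 and 0.0254). With 19.1 added to the signals these became 1.11, 0.80 and 0.82 and were not called (adjusted p = 0.138, 0.196 and 0.114), which left 3 genes. Without replicate 2 of dark atmyc2 the same 3 calls were lost (adjusted p = 0.0559, 0.111 and 0.0973). The ndhE and ndhJ calls were also lost without replicate 1 of dark atmyc2 (adjusted p = 0.105 and 0.116) or of dark WT (0.127 and 0.246), and that of ndhG without replicate 2 of dark WT (0.144).

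The 3 genes not called in dark atmyc2 were ndhC, ndhH and ndhK, with differences of 0.55 ± 0.26, 0.47 ± 0.70 and -0.08 ± 0.39 (adjusted p = 0.188, 0.728 and 0.927). Signals of ndhK were 17.1 and 10.5 in atmyc2 and 16.6 and 12.2 in WT, which overlapped, and those of ndhH were 4.6 and 6.9 against 1.0 and 10.5. All of these were under the dim level, so a difference between genotypes could not be read for ndhH and ndhK. Without replicate 2 of dark WT, ndhC was called (1.01, adjusted p = 0.0314). By gene order, 5 of the 6 genes of the ndhD to ndhH stretch were called and 1 of the 3 of the ndhJ, ndhK and ndhC stretch. Of the other plastid-encoded probe sets 31 of 58 were called higher, with a median of 1.05 against 1.99 for the ndh genes. Green tissue markers did not move with them: SBPASE fell by 0.65 and PRK fell by 1.72 in dark atmyc2, a direction in which 6.43% of all probe sets were called, and PSAN was not called (-0.16).

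In dark cop1-6 seedlings 8 of the 9 genes were higher than in dark WT, all but ndhC, where 16.2% of all probe sets tested were called higher. This comparison shares its 2 WT arrays with the preceding one, so the sets of genes called in them are not independent. For ndhG the dark signals were 256.3 and 134.7 in cop1-6 against 6.2 and 0.5 in WT (5.83 ± 0.62, adjusted p = 3.30e-06). For ndhJ they were 196.4 and 199.3 against 1.6 and 15.0 (4.95 ± 0.58, adjusted p = 1.01e-05), and for ndhE 320.1 and 164.2 against 8.5 and 13.8 (4.28 ± 0.48, adjusted p = 6.19e-06). Signals of these 3 genes were under the dim level on both WT arrays and above it on both cop1-6 arrays. For ndhA they were 469.5 and 459.5 in cop1-6 (4.15 ± 0.23, adjusted p = 2.44e-10), for ndhI 2911.0 and 2631.7 (3.38 ± 0.16, adjusted p = 4.89e-11) and for ndhD 3271.6 and 2574.7 (1.87 ± 0.26, adjusted p = 2.87e-05). Also called were ndhH (2.03 ± 0.70, adjusted p = 0.0398), with signals of 11.0 and 30.9, and ndhK (1.68 ± 0.39, adjusted p = 0.00374), with signals of 56.9 and 40.2. The ndhH call was lost with 19.1 added (0.67, adjusted p = 0.293), without the dim filter (adjusted p = 0.0647), without replicate 1 of dark WT (adjusted p = 0.44) and without replicate 2 of dark cop1-6 (adjusted p = 0.286). For ndhC the signals of 1069.6 and 572.2 overlapped those of WT (0.51 ± 0.26, adjusted p = 0.15), and without replicate 2 of either dark group it was called (adjusted p = 0.0164 without the WT and 0.0134 without the cop1-6 array). The median of the 9 genes was 3.38, against 2.93 over the other plastid-encoded probe sets, 50 of 58 of which were called. All 3 green tissue markers were higher too, PSAN by 4.06, SBPASE by 2.56 and PRK by 1.37.

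**Figure D3:**
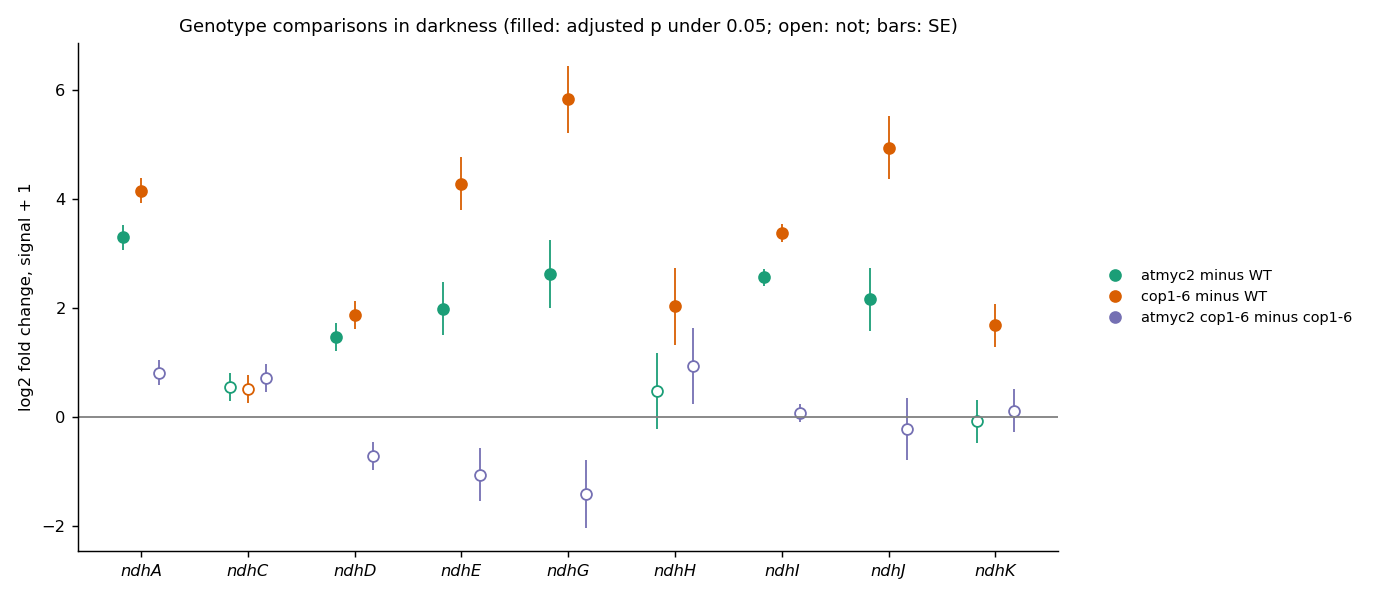
Log2 fold change in darkness of the 9 tested ndh genes for atmyc2 minus WT, cop1-6 minus WT and the double mutant minus cop1-6; filled points had an adjusted p under 0.05 and bars are the SE. The cop1-6 points lie above 0 for every gene, and those of the double mutant against cop1-6 lie on both sides of 0.

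The double mutant in darkness was compared with the cop1-6 single mutant. None of the 9 genes was called by limma, and 1.67% of all probe sets tested were called in either direction. An unadjusted p under 0.05 was reached by 5 of the 9, a looser threshold for which the share of all probe sets was not counted. The genes did not lie on one side. For ndhA the dark signals were 761.6 and 878.9 in the double mutant and 469.5 and 459.5 in cop1-6 (0.82 ± 0.23, adjusted p = 0.0682), and for ndhC 1162.5 and 1405.0 against 1069.6 and 572.2 (0.71 ± 0.26, adjusted p = 0.149). Both double mutant arrays were above both cop1-6 arrays for these genes, and with 19.1 added ndhA was called (0.79, adjusted p = 0.0259). In the opposite direction, ndhG had signals of 57.0 and 83.5 against 256.3 and 134.7 (-1.42 ± 0.62, adjusted p = 0.233), ndhE 115.2 and 103.9 against 320.1 and 164.2 (-1.06 ± 0.48, adjusted p = 0.255) and ndhD 1745.3 and 1767.4 against 3271.6 and 2574.7 (-0.72 ± 0.26, adjusted p = 0.141). For ndhI, 2771.3 and 3057.6 in the double mutant overlapped 2911.0 and 2631.7 in cop1-6.

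The interaction term asked whether the atmyc2 mutation had the same effect in cop1-6 as in WT seedlings in darkness. It was called below 0, meaning that the double mutant lay under the sum of both single-mutant changes, for 5 of the 9 genes, against 4.51% of all probe sets tested that were called lower. The term was -2.48 ± 0.32 for ndhA (adjusted p = 5.14e-04), -2.49 ± 0.23 for ndhI (adjusted p = 2.45e-05), -2.20 ± 0.36 for ndhD (adjusted p = 0.00206), -3.05 ± 0.69 for ndhE (adjusted p = 0.0111) and -4.04 ± 0.88 for ndhG (adjusted p = 0.00944). All 5 lie in the ndhD to ndhH stretch. For ndhJ the term was -2.38 ± 0.81 (adjusted p = 0.064), called in one alternative, without replicate 2 of dark WT (adjusted p = 0.00111). It was 0.15 ± 0.36 for ndhC, 0.47 ± 0.99 for ndhH and 0.19 ± 0.56 for ndhK. Dark WT and atmyc2 signals of ndhH and ndhK were under the dim level. Those of ndhE, ndhG and ndhJ were under it in dark WT, so the sizes of their terms depend on the constant added. Without replicate 1 of dark cop1-6 the calls of ndhE and ndhG were lost (adjusted p = 0.0756 and 0.0626), leaving 3, and ndhG was also lost without replicate 1 of the dark double mutant (adjusted p = 0.0515). Of all calls 65.5% were higher, and 55.3% after quantile normalization.

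Expressed as a share of the lit level of the same genotype, dark signal of ndhA was 1.43% in WT, 15.6% in atmyc2, 32% in cop1-6 and 50.3% in the double mutant. For ndhG the shares were 1.75%, 18.3%, 189% and 54.7% in the same order. For ndhE they were 3.2%, 19.1%, 112% and 32.8%. The cop1-6 share was the highest of the 4 for ndhG and ndhE, and the double mutant's for ndhA. For ndhD the shares were 29.2%, 115%, 162% and 78%, so that dark atmyc2 and dark cop1-6 means exceeded their own lit means. For ndhJ they were 2.27%, 11.8%, 85.2% and 59.7%, and for ndhI 5.84%, 42.6%, 74.5% and 77.2%. For the stromal-arm gene ndhH they were 2.73%, 2.29%, 8.24% and 15.6%. For ndhK they were 10.9%, 13.5%, 49.4% and 39.4%, and for ndhC 41.5%, 67.7%, 69.4% and 117%. Dark means of ndhE, ndhG, ndhH, ndhJ and ndhK in WT and of ndhH and ndhK in atmyc2 were under the dim level, so their shares show only that little of the lit signal remained and give no order among them.

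**Figure D4:**
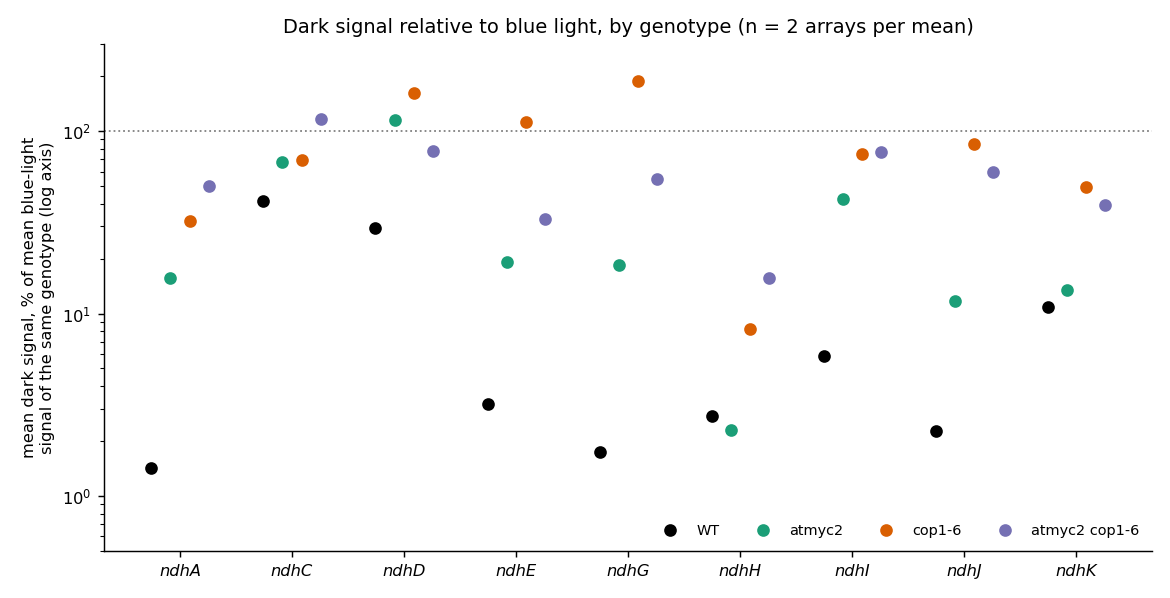
Mean dark signal of each tested ndh gene as a percentage of the mean blue-light signal of the same genotype (log axis). WT values run from 1.43% for ndhA to 41.5% for ndhC, and the dashed line at 100% marks equal dark and lit means.

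In atmyc2, blue light raised 7 of the 9 genes, against 34.4% of all probe sets tested called higher. After quantile normalization 51.2% of all calls in that comparison were higher, against 62.9% before it. The largest change was that of ndhH, from 4.6 and 6.9 to 186.9 and 315.6 (5.20 ± 0.70, adjusted p = 1.37e-05), and that of ndhA was 2.67 ± 0.23 (adjusted p = 1.59e-08). The 2 genes not called were ndhC (0.56 ± 0.26, adjusted p = 0.0739), which was called after quantile normalization (0.74, adjusted p = 0.0171), and ndhD (-0.21 ± 0.26, adjusted p = 0.513). Dark and lit ndhD signals in atmyc2, 2304.6 and 2115.8 against 2035.7 and 1794.6, lay close together.

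In cop1-6, blue light raised ndhA (1.63 ± 0.23, adjusted p = 1.14e-05), ndhH (3.63 ± 0.70, adjusted p = 4.70e-04) and ndhI (0.43 ± 0.16, adjusted p = 0.0306), and lowered ndhD (-0.74 ± 0.26, adjusted p = 0.0212). Of all probe sets tested 30.6% were called higher and 23.5% lower. Lit cop1-6 signals were 1295.6 and 2313.8 for ndhD, against 3271.6 and 2574.7 in darkness, and 176.5 and 331.8 for ndhH, against 11.0 and 30.9. The ndhD call was lost after quantile normalization (-0.36, adjusted p = 0.281), without replicate 1 of dark cop1-6 (adjusted p = 0.167) and without replicate 1 of blue cop1-6 (adjusted p = 0.35). The ndhI call was lost without any one of the 4 cop1-6 arrays (adjusted p = 0.0512 and 0.138 without dark replicates 1 and 2, 0.115 and 0.0792 without blue replicates 1 and 2). Conversely ndhC was called without replicate 1 of dark cop1-6 (adjusted p = 0.00456) and after quantile normalization (adjusted p = 0.00825), and ndhK without replicate 1 of blue cop1-6 (adjusted p = 0.00198). For ndhE, ndhG and ndhJ the differences were -0.32 ± 0.48, -0.93 ± 0.62 and 0.07 ± 0.58, none of them called.

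In the double mutant, light raised ndhA (0.98 ± 0.23, adjusted p = 0.00208), ndhH (2.56 ± 0.70, adjusted p = 0.00897), ndhE (1.53 ± 0.48, adjusted p = 0.0199) and ndhK (1.33 ± 0.39, adjusted p = 0.0126), where 19.9% of all probe sets tested were called higher. Signals of ndhA went from 761.6 and 878.9 to 1436.1 and 1825.6, and those of ndhH from 34.8 and 38.2 to 151.7 and 317.5. Without replicate 2 of the blue double mutant, ndhA alone was called (adjusted p = 0.177 for ndhE, 0.0779 for ndhH and 0.057 for ndhK). Without dark replicate 1 or dark replicate 2, ndhE and ndhK were lost, leaving 2 genes (adjusted p = 0.0625 and 0.0959 for ndhE, 0.0578 and 0.0589 for ndhK). The other genes had differences of -0.22 for ndhC, 0.35 for ndhD, 0.88 for ndhG, 0.37 for ndhI and 0.74 for ndhJ, and ndhI was called after quantile normalization (adjusted p = 0.0088).

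The difference between each mutant's light response and that of WT was tested directly, and the 3 tests share the WT arrays. In atmyc2 the response was smaller for 6 genes, ndhA, ndhD, ndhE, ndhG, ndhI and ndhJ, while 3.16% of all probe sets tested were called lower. Of all calls 60.2% were higher, and 43.4% after quantile normalization. The difference was -3.48 ± 0.32 for ndhA (adjusted p = 1.02e-05), -2.88 ± 0.23 for ndhI (adjusted p = 2.33e-06) and -2.02 ± 0.36 for ndhD (adjusted p = 0.00422). For ndhH it was -0.12 ± 0.99 (adjusted p = 0.956), and for ndhK -0.24 ± 0.56 (adjusted p = 0.822). Dark signals of both genes were under the dim level in WT and in atmyc2, so a difference between their dark levels could not be read. The differences of ndhE, ndhG and ndhJ were -2.51, -3.48 and -2.76 (adjusted p = 0.0368, 0.0266 and 0.0494) and were not called with 19.1 added (adjusted p = 0.129, 0.0796 and 0.0654). All 3 were also lost without replicate 2 of dark atmyc2 (adjusted p = 0.0696, 0.0914 and 0.103), without replicate 1 of blue WT (adjusted p = 0.125, 0.126 and 0.123) and without replicate 2 of blue atmyc2 (adjusted p = 0.122, 0.121 and 0.144). Without one of the other 5 arrays of this comparison at a time, the adjusted p of ndhE lay between 0.0508 and 0.111, the ndhJ call was lost for 4 of them (0.0832 to 0.113), and the ndhG call without replicate 2 of dark WT (0.0845). The ndhE and ndhJ calls were also lost with dim probe sets kept (adjusted p = 0.0528 and 0.0751) and without trend and robust estimation (adjusted p = 0.0516 and 0.0613), and the ndhJ call after quantile normalization (adjusted p = 0.0546).

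In cop1-6 the light response was smaller than in WT for 7 genes, all but ndhC and ndhH, where 17.2% of all probe sets were called lower. The difference was -6.79 ± 0.88 for ndhG (adjusted p = 2.91e-05), -5.73 ± 0.81 for ndhJ (adjusted p = 7.75e-05), -5.20 ± 0.69 for ndhE (adjusted p = 3.33e-05) and -4.52 ± 0.32 for ndhA (adjusted p = 1.54e-08). For ndhI, ndhD and ndhK it was -3.68, -2.56 and -2.26. Dark WT signals of ndhE, ndhG, ndhH, ndhJ and ndhK were under the dim level. The sizes of their differences, here and in the double mutant, thus depend on the constant added and give no order against the other genes. The uncalled differences were -0.74 ± 0.36 for ndhC and -1.68 ± 0.99 for ndhH. In the double mutant 8 genes, all but ndhH, had a smaller response, with 15.4% of all probe sets called lower. Its differences ran from -1.46 for ndhD to -5.17 for ndhA, and ndhH was at -2.76 ± 0.99 (adjusted p = 0.0512). The ndhH difference was called after quantile normalization (-2.87, adjusted p = 0.0497). Without replicate 2 of dark WT, ndhH was called for cop1-6 (adjusted p = 0.0171) and for the double mutant (adjusted p = 0.00357), and ndhC for cop1-6 (adjusted p = 0.0145) and for atmyc2 (adjusted p = 0.0497). The ndhC difference of cop1-6 was also called without replicate 2 of dark cop1-6 (adjusted p = 0.0115). The ndhH difference of the double mutant was also called without replicate 1 of blue WT (adjusted p = 0.0368) or replicate 2 of the blue double mutant (adjusted p = 0.0385). The ndhK difference of the double mutant, -1.74 ± 0.56 (adjusted p = 0.0275), was not called with 19.1 added (-1.05, adjusted p = 0.083), nor without any one of 6 of the 8 arrays it rests on (adjusted p = 0.0553 to 0.117).

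In blue light few ndh differences between genotypes were called. Between atmyc2 and WT limma called none of the 9 genes, and 0.0123% of all probe sets were called in either direction. An unadjusted p under 0.05, for which the share of all probe sets was not counted, was reached by 1 of the 9. The differences ran from -0.85 for ndhG to 0.36 for ndhH. For ndhG the lit signals were 143.0 and 76.7 in atmyc2 and 216.8 and 166.3 in WT, which did not overlap, with an SE of 0.62. Between cop1-6 and WT 1 of the 9 genes, ndhD, was lower (-0.69 ± 0.26, adjusted p = 0.0443), against 16.1% of all probe sets. Its lit signals were 1295.6 and 2313.8 in cop1-6 and 3001.4 and 2612.4 in WT. The call was lost without the dim filter (adjusted p = 0.0516), after quantile normalization (adjusted p = 0.355), without trend and robust estimation (adjusted p = 0.0728), and without replicate 1 of blue cop1-6 or either blue WT array (adjusted p = 0.501, 0.234 and 0.0659). Without replicate 2 of blue cop1-6, 3 genes were called, ndhE (-1.75) and ndhK (-1.38) besides ndhD. Between the double mutant and cop1-6 none was called by limma, none had an unadjusted p under 0.05, and 0.0185% of all probe sets were called.

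The 2 blue cop1-6 arrays differed from each other in one direction for most of these genes. Replicate 2 was above replicate 1 for 8 of the 9, with a median ratio of 1.88 and a highest ratio of 3.20. With ABA it was above replicate 1 in cop1-6 for 9 of 9, with a median ratio of 1.65. In blue WT 5 of 9 were higher in replicate 2, with a median ratio of 1.02. Signals of ndhE were 102.5 and 328.5 in blue cop1-6, for example, and 327.1 and 370.5 in blue WT. Some other groups were one-sided too. Replicate 2 was higher for 9 of 9 in the blue double mutant (median ratio 1.22) and for 7 of 9 in dark WT (1.66). In atmyc2 with ABA it was higher for 0 of 9 (0.78). The SE is estimated over all groups together and does not show such differences in spread between groups. Dim ndh signals in dark WT had ratios of replicate 2 to replicate 1 from 0.0806 to 10.5.

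With ABA in the medium, limma called none of the 9 ndh genes in any genotype. All probe sets called in either direction were 34.9% in WT, 21.8% in atmyc2, 13.4% in cop1-6 and 23.3% in the double mutant. In that order 0, 0, 1 and 5 of the 9 ndh genes had an unadjusted p under 0.05. That threshold is looser, and the share of all probe sets under it was not counted, so these counts have no comparator. In WT the signals of ndhJ were 565.8 and 582.5 with ABA and 292.7 and 439.6 without it (0.68 ± 0.58, adjusted p = 0.383), and those of ndhC were 1056.3 and 1022.1 against 1478.7 and 1301.4 (-0.42 ± 0.26, adjusted p = 0.221). Both arrays with ABA lay above those without for ndhJ and below them for ndhC. The WT differences ran from -0.52 for ndhG to 0.82 for ndhH, with a median of -0.14. Over the other 58 plastid-encoded probe sets the WT median was 0.16, with 16 called higher and 4 lower. Those called included 5 of 7 genes for small-subunit and 5 of 7 for large-subunit ribosomal proteins and 3 of 4 for RNA polymerase subunits, all higher.

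In the double mutant all 9 differences with ABA lay below 0, from -0.20 for ndhH to -1.43 for ndhG, with a median of -0.59, against -0.03 over all probe sets. For ndhE the signals were 126.3 and 140.4 with ABA and 227.8 and 440.7 without (-1.24 ± 0.48, adjusted p = 0.0758), and for ndhK 67.0 and 71.0 against 129.0 and 134.4 (-0.92 ± 0.39, adjusted p = 0.101). For ndhG they were 48.8 and 44.9 against 115.6 and 141.3 (-1.43 ± 0.62, adjusted p = 0.11). With 19.1 added to the signals, ndhG was called (-1.16, adjusted p = 0.0307). In cop1-6 all 9 differences were likewise below 0, with a median of -0.34, and in atmyc2 they ran from -0.27 to 0.79. Whether the ABA response differed between genotypes was not tested.

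**Figure D5:**
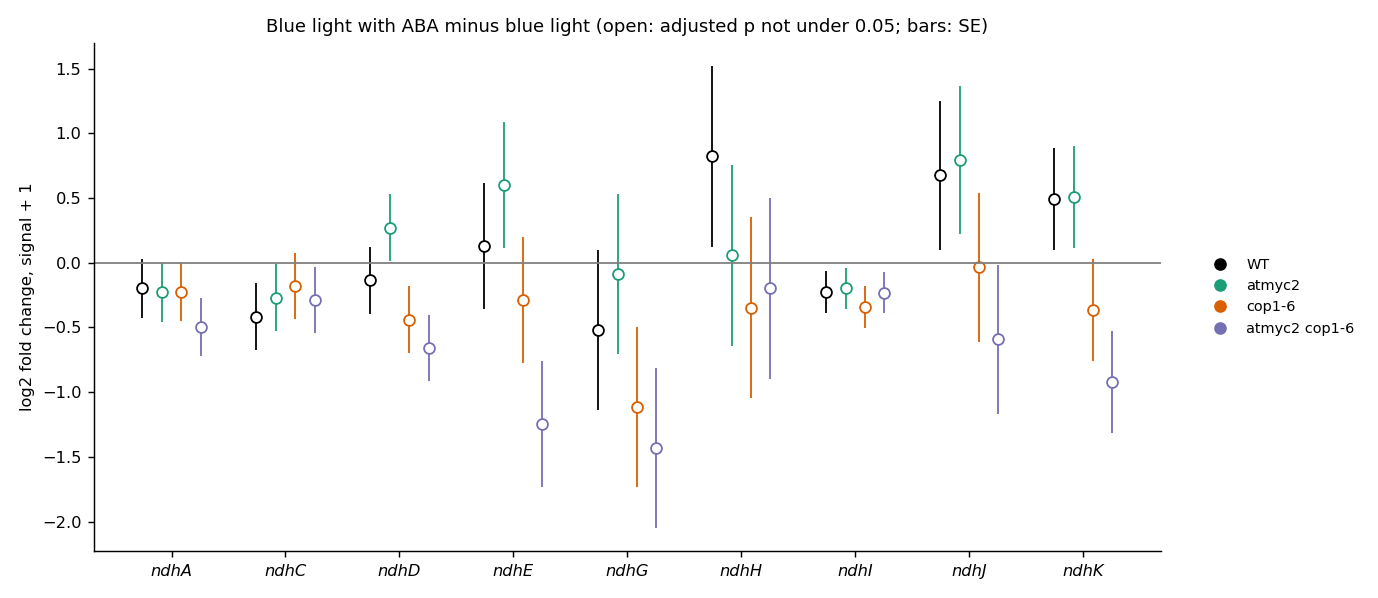
Log2 fold change from blue light to blue light with ABA (signal + 1) of the 9 tested ndh genes in the 4 genotypes; points are fitted values, open because none had an adjusted p under 0.05, and bars are the SE. All double mutant points lie below 0, between -0.20 and -1.43.

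On ABA plates, cop1-6 was lower than WT for ndhD (-0.996 ± 0.26, adjusted p = 0.0306) and ndhK (-1.44 ± 0.39, adjusted p = 0.0425), 2 of 9 genes, against 3.53% of all probe sets. Signals of ndhD were 989.0 and 1648.1 in cop1-6 and 2489.2 and 2607.8 in WT, and those of ndhK were 53.6 and 80.2 against 177.0 and 181.1. Both cop1-6 arrays were below both WT arrays for each gene. Both calls were lost without trend and robust estimation (adjusted p = 0.0676 and 0.0725) and without replicate 1 of cop1-6 or either WT array on ABA plates, whichever was left out (adjusted p = 0.297, 0.131 and 0.231 for ndhD, 0.251, 0.171 and 0.26 for ndhK). Without replicate 2 of cop1-6 on ABA, 4 genes were called, with ndhE (-1.97) and ndhG (-2.28) added. The uncalled ndhJ had signals of 157.6 and 260.3 against 565.8 and 582.5 (-1.50 ± 0.58, adjusted p = 0.169), and was called with 19.1 added (-1.42, adjusted p = 0.012). Between atmyc2 and WT with ABA, and between the double mutant and cop1-6 with ABA, limma called none of the 9 genes and none had an unadjusted p under 0.05, with 0.037% and 0.253% of all probe sets called.

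Across the 12 groups, dark WT had the lowest mean in 7 of the 10 genes and dark atmyc2 in ndhF and ndhK, where the arrays of both groups overlapped. For ndhH both groups had the same mean, 5.75, which was under the dim level. The highest mean was in WT with ABA for 5 genes, in blue WT for 3, and in dark cop1-6 for ndhD and ndhG, whose dark cop1-6 arrays overlapped those of blue WT. For ndhA the 4 dark groups stood apart from each other and from all lit groups, in the order WT, atmyc2, cop1-6 and double mutant, while the arrays of most neighbouring lit groups overlapped. Over the 12 group means the 36 pairs of tested ndh genes correlated at Pearson r = 0.32 to 0.98, with a median of 0.84. The lowest r was between ndhD and ndhH, which lie at opposite ends of one stretch, and the highest between ndhE and ndhJ, which lie in different stretches. Over the 8 lit groups alone r ran from -0.11 to 0.97. These correlations are descriptive, since all genes were read from the same arrays and share the contrast of light with darkness.

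The photosystem gene psaC, which lies between ndhD and ndhE, had dark signals of 26.1 and 51.3 in WT, 277.1 and 269.2 in atmyc2, 767.4 and 448.1 in cop1-6 and 231.4 and 279.6 in the double mutant, and of 555.8 and 658.1 in blue WT. Its changes were 4.01 ± 0.47 from darkness to light in WT, 2.86 ± 0.47 for atmyc2 and 3.96 ± 0.47 for cop1-6 in darkness, with an interaction of -4.07 ± 0.66 (adjusted p = 3.58e-06, 0.00137, 1.06e-05 and 0.00241). Its neighbours ndhD and ndhE moved in the same direction in each of these comparisons. The ndhB probe set, which matches 2 gene copies, had signals between 6.6 and 33.0 on all arrays.

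Among 1260 other tested probe sets with one named gene, those whose 12 group means followed the average ndh profile most closely were plastid genes: psaI (r = 0.989), psbH (0.988), psaB (0.984), atpA (0.982) and ycf4 (0.977). They encode photosystem I, photosystem II and ATP synthase subunits and, in ycf4, a photosystem I assembly factor. The closest genes not encoded in the plastid were PSBW, a photosystem II subunit (0.969), CCB3, an assembly factor of the cytochrome b6f complex (0.953), ECS1 (0.947), Fes1B (0.939) and LSMT-L (0.938). All r are over 12 group means of the same arrays and carry no test.

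Nuclear genes for NDH subunits were represented by 4 of 20 listed loci with a named probe set, NDHL, NDHN, NDHS and NDHV. All 4 were higher in blue light than in darkness in each of the 4 genotypes, where 23.7%, 34.4%, 30.6% and 19.9% of all probe sets tested were called higher in WT, atmyc2, cop1-6 and the double mutant. In WT, NDHL rose from 0.6 and 3.5 to 195.9 and 239.8 (6.34 ± 0.32, adjusted p = 1.34e-11) and NDHV from 0.8 and 4.4 to 262.8 and 257.8 (6.39 ± 0.50, adjusted p = 2.27e-08). For NDHS, a stromal subunit involved in ferredoxin binding, the signals were 60.8 and 42.5 against 496.3 and 497.3 (3.26 ± 0.20, adjusted p = 1.39e-10), and for NDHN 12.7 and 17.1 against 259.8 and 225.1 (3.95 ± 0.24, adjusted p = 1.41e-10). In dark cop1-6 all 4 were higher than in dark WT, by 3.48 for NDHL, 1.88 for NDHN, 2.14 for NDHS and 4.03 for NDHV, with 16.2% of all probe sets called higher. Dark WT signals of NDHL, NDHN and NDHV were under the dim level. The sizes of their differences from dark WT thus depend on the constant added and give no order among the genes. In dark atmyc2 1 of the 4, NDHL, was higher (1.78 ± 0.32, adjusted p = 0.00207), with signals of 6.4 and 10.4, still under the dim level, where 4.54% of all probe sets were called higher. NDHS was at -0.57 there, with signals of 38.3 and 30.1.

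With ABA, NDHN was lower in all 4 genotypes, with log2 differences of -1.24 in WT, -1.14 in atmyc2, -1.49 in cop1-6 and -1.26 in the double mutant. Its WT signals were 97.0 and 107.5 with ABA and 259.8 and 225.1 without. NDHL was also lower in cop1-6 (-1.40) and NDHS in the double mutant (-1.01). Mean signals of NDHL, NDHS and NDHV were lower with ABA in every genotype, but their other differences were not called. For NDHV, called in no genotype, the WT signals were 148.1 and 152.7 with ABA and 262.8 and 257.8 without. Of all probe sets 15.6%, 11.1%, 7.58% and 13.4% were called lower in WT, atmyc2, cop1-6 and the double mutant. The green tissue markers were lower with ABA as well, 3 of 3 in WT, cop1-6 and the double mutant and 2 of 3 in atmyc2.

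Of 11 listed NDH assembly and RNA factors, 5 had a named probe set, all from the chlororespiratory reduction (CRR) group. All 5 were higher in blue light in WT, 4 in atmyc2, and 3 each in cop1-6 and the double mutant, against 23.7%, 34.4%, 30.6% and 19.9% of all probe sets in that order. CRR42, an assembly factor, went from 0.8 and 0.7 to 59.3 and 53.2 in WT (5.03 ± 0.57, adjusted p = 1.04e-06). CRR21, an RNA editing factor of ndhD transcripts, went from 4.2 and 8.2 to 35.1 and 67.9 (2.85 ± 0.44, adjusted p = 3.64e-05). In darkness 3 of the 5, CRR22, CRR41 and CRR42, were higher in cop1-6 than in WT, by 1.38, 0.86 and 2.09, against 16.2% of all probe sets. Their signals were under the dim level on every dark WT and dark cop1-6 array, so these sizes depend on the constant added. For CRR42 they were 0.8 and 0.7 in WT and 3.2 and 12.2 in cop1-6. None of the 5 was called in dark atmyc2. None of the 5 was called with ABA in any genotype. Of 3 loci of the other cyclic route, PGRL1B alone had a named probe set. It was higher in light in each genotype (1.94 in WT) and higher with ABA in WT (0.98 ± 0.22, adjusted p = 0.00248).

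None of 7 loci for plastid sigma factors and RNA polymerase, 5 seed and late embryo markers and 3 ABA response genes had a named probe set in the annotation used here. Of 4 root markers EXPA7 had one, with signals from 0.4 to 76.4 over the arrays, and was called in one comparison, higher in blue light than in darkness in the double mutant (2.54). Its signals there were 0.4 and 6.4 in darkness and 38.4 and 7.9 in light.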

How the data were processed

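Total RNA of whole seedlings, 5 µg per sample, was labelled as biotinylated cRNA by the standard Affymetrix protocol, per the labels' protocols. That protocol primes from oligo(dT), while plastid transcripts mostly lack stable poly(A) tails, and the effect of this on capture was not tested. The deposited signal intensities were made by the authors with GCOS 1.4, per the submitters' processing notes. Scaling details and a genome build are not given in the sources used here. Trimmed means, leaving out 2% at each end, differed by a ratio of 1.01 between arrays, so no further scaling was applied. All value columns were used (0 left out).

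The platform annotation gives 13513 of 22810 probe sets one gene and does not list 8794. The members and the gene lists were chosen with earlier results of these data known. Named are every member, list genes where called, psaC and ndhB, other plastid genes as counts and medians, and the 5 best correlated probe sets of all and the 5 best not plastid-encoded. Lists were nuclear NDH subunits, NDH assembly and RNA factors, the other cyclic route, sigma factors and RNA polymerase, root, seed and green tissue markers, and ABA response genes.

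After 64 control probe sets and those with no group mean above 19.1 were left out, limma 3.58.1 in R 4.3.3 fitted 12 group means of log2(signal + 1) over 24 arrays, with trend and robust empirical Bayes estimation and Benjamini-Hochberg adjustment over all 16196 probe sets, genome-wide. Alternatives were a pseudocount of 19.1, no dim filter, quantile normalization, no trend and robust estimation, the replicate number as a block, and each array left out. The number of arrays, 2 a group, limits the precision.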

Additional observations from a re-analysis of the deposited data

Results flagged for a closer look

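The light response differed from that of WT by a test of the difference itself (a limma contrast, adjusted p under 0.05 over all probe sets tested) for 6 ndh genes in atmyc2. The differences were -3.48 for ndhA, -2.02 for ndhD, -2.51 for ndhE, -3.48 for ndhG, -2.88 for ndhI and -2.76 for ndhJ on the log2 scale. In cop1-6 they were -4.52 for ndhA, -2.56 for ndhD, -5.20 for ndhE, -6.79 for ndhG, -3.68 for ndhI, -5.73 for ndhJ and -2.26 for ndhK. In the double mutant they were -5.17 for ndhA, -1.56 for ndhC, -1.46 for ndhD, -3.35 for ndhE, -4.98 for ndhG, -3.74 for ndhI, -5.06 for ndhJ and -1.74 for ndhK. All of these rest on the same 4 WT arrays. Of all probe sets tested, 3.16% were called lower in atmyc2, 17.2% in cop1-6 and 15.4% in the double mutant. With the dim level added to the signals, ndhE, ndhG and ndhJ were not called in atmyc2, nor ndhK in the double mutant. The same calls were also lost without some single arrays, as given above. Dark WT signals of ndhE, ndhG, ndhJ and ndhK were under the dim level, so the sizes of their differences depend on the constant added.

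In darkness the effect of atmyc2 differed between cop1-6 and WT backgrounds, by the interaction term of the same fit, for ndhA (-2.48), ndhD (-2.20), ndhE (-3.05), ndhG (-4.04) and ndhI (-2.49). Of all probe sets tested, 4.51% were called lower for this term. The ndhE and ndhG calls were lost without some single arrays, as given above. Dark WT signals of both genes were under the dim level, so the sizes of these 2 terms depend on the constant added. Poly-A spike-in signals of the dark cop1-6 and double mutant arrays also stood apart from those of dark WT and atmyc2. The part of these signals in the interaction terms was not tested.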

How the results depend on the processing

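Counts of ndh genes called were compared over 5 other settings and with each array left out in turn. With the dim level of 19.1 added in place of 1, 3 genes were called for atmyc2 minus WT in darkness and 3 for the difference of its light response, against 6 each, 1 for the double mutant minus cop1-6 in darkness and 1 for ABA in the double mutant, against 0 each. Adding a larger constant shrinks differences between dim signals by construction. For cop1-6 minus WT in blue light, 0 genes were called without the dim filter, after quantile normalization and without trend and robust estimation, against 1. On ABA plates 0 were called without trend and robust estimation, against 2. The cause of these changes was not tested.

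With 1 array left out, counts ran from 1 to 4 for light in the double mutant, 3 to 6 for atmyc2 minus WT in darkness, 3 to 5 for the atmyc2 light difference, 3 to 6 for the dark interaction, 0 to 3 for cop1-6 minus WT in blue light and 0 to 4 with ABA. For cop1-6 the light count was 3 throughout, against 4, and it ran from 7 to 9 for cop1-6 minus WT in darkness and for the light differences of cop1-6 and the double mutant. Light in WT gave 9 and in atmyc2 7 each time, and the comparisons with a count of 0 kept it. A group left with 1 array is assumed to vary like the others.

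Replicate numbers did not pair the arrays: same-numbered deviations from the group means correlated at -0.155 to 0.306 over 66 pairs of groups, over 0.1 in 8. With the replicate block, cop1-6 minus WT on ABA plates had 1 called gene instead of 2, and ndhH was called for the light difference of the double mutant.

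Of 1845 alternative values of single genes and comparisons, 1738 kept their side of the threshold, 82 lost a call, 25 gained one, and 0 called values changed sign. For values not called in either setting, direction was not compared. Quantile normalization moved the median of all probe sets by -0.27 for light in atmyc2, -0.15 in cop1-6, -0.103 in the double mutant, -0.16 for the atmyc2 light difference, -0.13 for the dark interaction and -0.102 for ABA in WT. It also moved the share of calls that were higher from 26.8% to 40.4% for the double mutant minus cop1-6 with ABA, where 41 probe sets were called, and from 50.0% and 33.3% to 0 in the blue comparisons of atmyc2 and the double mutant, with 2 and 3 calls. With 2 arrays a group, no detection calls used here and dark WT signals under the dim level for 5 of the 9 genes, the sizes of the dark differences in those genes depend on the constant added.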
